A study of Mus musculus with 9 samples.

Results

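The interactions described here were called after auxin treatment and had no called counterpart in untreated cells: of the 13703 H3K27ac interactions with at least 15 contacts after 12 h of IAA, 1327 (9.68%) had no untreated interaction within 1 bin of 2 kb at both anchors. They are called IAA-only interactions below. They came from a list of 28210 interactions after IAA, set against a list of 36274 interactions in untreated cells, and the 4 lists of the study hold 137744 interactions together. They were chosen by the contact counts and calls of the H3K27ac lists, so their counts, q-values and missing untreated calls are given as descriptions and not as findings. Genes, CTCF and RAD21 interactions and DNA sequence at the anchors were not used to choose them.

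All 9 libraries came from E14 mouse embryonic stem cells of the genotype CTCF AID, grown in serum-free medium with leukemia inhibitory factor and the inhibitors PD0325901 and CHIR99021. H3K27ac MNase HiChIP was done on 2 libraries without IAA and on 2 after 12 h of IAA, and CTCF (2 libraries) and RAD21 (3 libraries) were profiled without IAA. Untreated cells carried the same CTCF AID genotype. Each group is represented by 1 interaction list pooled over its libraries, so the values have no error over libraries and differences are given with counting error alone. CTCF protein levels were not analysed here, nor were CTCF and RAD21 interactions in treated cells.

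HiChIP ligates DNA fragments held near each other by crosslinking and enriches the ligation products with an antibody, here after digestion by micrococcal nuclease. H3K27ac marks active promoters and enhancers, so its interactions join such elements to each other and to neighbouring chromatin. CTCF binds DNA in an oriented motif and halts the loop-extruding cohesin complex, of which RAD21 is a subunit; CTCF-bound sites thereby form loop ends and boundaries between domains. The auxin IAA triggers degradation of proteins that carry an auxin-inducible degron (AID).

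The sequences below lie between the ends of the IAA-only interactions that involved pluripotency or ribosomal genes or crossed many CTCF interactions, in bins where the untreated CTCF list has an interaction anchor. Capitals mark a full match to the CTCF core motif, with the flanks in lower case, read 5′ to 3′ on the strand given (GRCm38).

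Between Dppa3 and a bin near Nanog (chr6:122660654-122660697, plus strand): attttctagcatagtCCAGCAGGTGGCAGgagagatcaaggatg

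Between Rab8a and Klf2 (chr8:72257582-72257625, minus strand): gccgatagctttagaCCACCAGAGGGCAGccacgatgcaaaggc

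Between Esrrb and its distal partner, first site (chr12:86769180-86769223, plus strand): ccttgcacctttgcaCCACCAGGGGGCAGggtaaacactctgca

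Between Esrrb and its distal partner, second site (chr12:86772238-86772281, plus strand): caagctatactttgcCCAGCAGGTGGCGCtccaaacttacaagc

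Between Prr12 and Rpl13a (chr7:45080008-45080051, plus strand): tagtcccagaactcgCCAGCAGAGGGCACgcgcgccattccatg

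Between Hsp90ab1 and Mymx (chr17:45585028-45585071, plus strand): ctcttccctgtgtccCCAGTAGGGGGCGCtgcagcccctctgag

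Allowing 1 mismatch to the core, 352 of the 912 CTCF-list anchor bins between the ends of IAA-only interactions held a match (38.6%, 95% Wilson interval 35.5 to 41.8). The share was 33.1% in such bins between the ends of the other IAA interactions with 15 or more contacts, 41.7% over all 34038 CTCF-list anchor bins and 3.42% in the same bins moved by 10000 bp. The share of all CTCF-list anchor bins lay within the interval of the IAA-only share, and that between the ends of the others lay below it. These shares were not weighted for span or contacts. The 912 bins are part of the 34038, and a bin can lie between the ends of both kinds of interaction, so the sets are not independent. Wilson intervals here and below cover counting error only.

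The promoters at the ends of the Rab8a to Klf2 interaction are shown because both lie within the interacting bins and the pair was not called in untreated cells. The sequences are RefSeq's on GRCm38.p6, with the start base in capitals. They hold 23 CpG dinucleotides at Rab8a and 32 at Klf2, against a median of 7 over all RefSeq promoters of this length.

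Rab8a promoter (chr8:72160950-72161249, plus strand): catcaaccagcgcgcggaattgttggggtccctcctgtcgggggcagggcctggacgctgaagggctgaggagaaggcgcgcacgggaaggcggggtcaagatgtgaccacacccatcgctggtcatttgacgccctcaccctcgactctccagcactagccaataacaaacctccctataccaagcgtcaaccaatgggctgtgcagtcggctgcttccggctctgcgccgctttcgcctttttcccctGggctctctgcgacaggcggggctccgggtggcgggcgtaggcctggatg

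Klf2 promoter (chr8:72318812-72319111, plus strand): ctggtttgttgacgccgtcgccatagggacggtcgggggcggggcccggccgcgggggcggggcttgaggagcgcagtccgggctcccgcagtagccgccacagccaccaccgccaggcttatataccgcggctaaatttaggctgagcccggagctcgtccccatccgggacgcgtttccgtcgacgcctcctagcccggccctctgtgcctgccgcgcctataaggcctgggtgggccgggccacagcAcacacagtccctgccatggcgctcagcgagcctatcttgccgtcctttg

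IAA-only interactions were short and weakly counted. Their median contact count was 17 (lowest 15, highest 60) and their median span 10 kb (6 to 512), where span is the distance between the bin starts. The authors' model, which predicts contacts from distance and coverage, gave a median of 4.55 contacts for the same pairs. The median ratio of observed to predicted contacts was 3.74, against 4.90 in the other 12376 IAA interactions with 15 or more contacts. The median q-value was 0.00255 against 5.00e-06 in the others, and 432 IAA-only interactions (32.6%) had a q-value of 0.01 or more. They formed 1197 loci when neighbouring bin pairs within 4000 bp were joined, of which 1087 held a single pair. They lay on all 20 chromosomes tested, with 7.20% to 12.8% of each chromosome's well-counted IAA interactions.

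The share of IAA interactions that were IAA-only depended on contact count, span and peak status. It was 18.8% at 15 contacts and 1.04% at 36 or more. It was 16.8% at 6 kb, the shortest span in the H3K27ac lists, and 9.20% at 8 kb. At 6 kb the lists can hold only 6 of the 9 neighbouring bin pairs that would count as a match, against 8 of 9 at 8 kb and 9 of 9 from 10 kb, and 478 IAA-only interactions had that span. Among pairs with a peak at 1 end, 32.4% were IAA-only, against 6.21% of pairs with peaks at both ends. Peak flags were the same in both H3K27ac lists for every bin present in both.

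**Figure D1:**
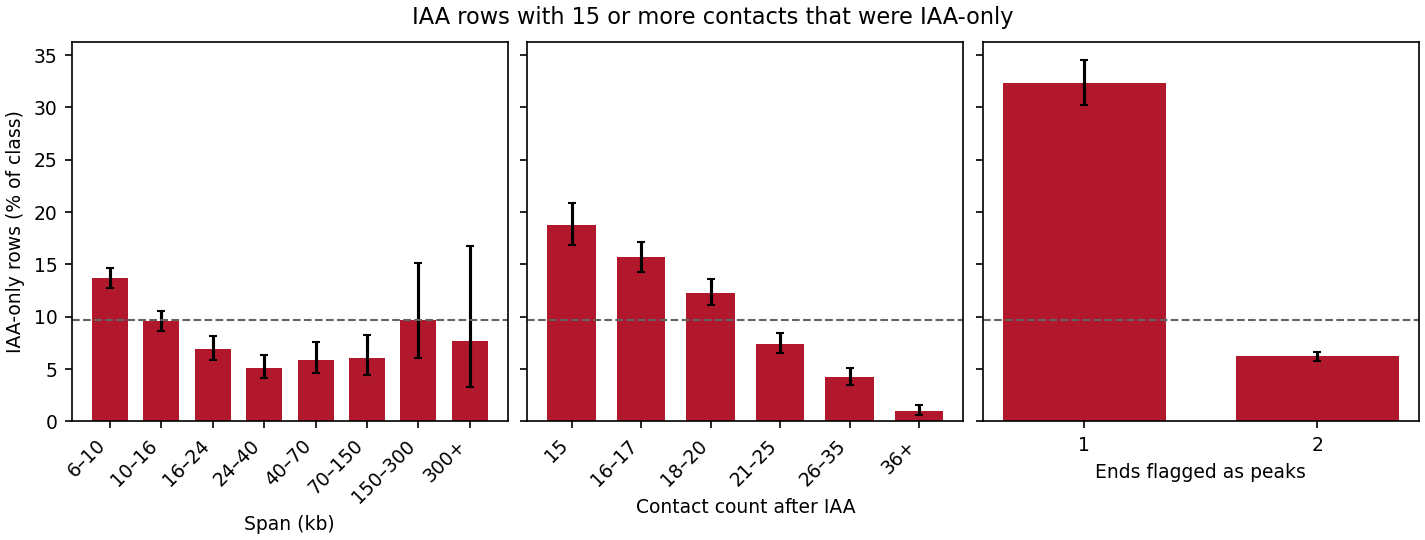
Percent of IAA H3K27ac interactions with 15 or more contacts that had no untreated interaction within 1 bin, by span in kb, by contact count and by the number of ends flagged as peaks. Bars are percentages with 95% Wilson intervals and the dashed line is the 9.68% of all 13703; the share falls from 18.8% at 15 contacts to 1.04% at 36 or more and is 32.4% for pairs with a peak at 1 end.

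At the edges of the rule, 279 IAA-only interactions had exactly 15 contacts (median q 0.00221), and 348 with 14 contacts fell outside (median q 0.00231). The nearest untreated interaction was 1 bin away for 2157 pairs outside the rule. It was 2 bins away for 285 pairs inside it and 11 or more bins away for 298. The mirrored rule gave 2413 untreated-only interactions of 15862 with 15 or more contacts (15.2%).

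A pair missing from the untreated list was not called at that depth, which is not the same as absent. The contacts behind each model were estimated as the median, over listed pairs, of the predicted count divided by the model's probability. The estimate was 12551236 in untreated cells, 0.858 of the 14629323 after IAA. The most weakly called untreated interactions, those with q from 0.03 to 0.05, had at most 9 contacts at spans of 70 kb or more, but reached 39 contacts at 6 kb with peaks at both ends and 79 with a peak at 1 end. The rule's minimum of 15 contacts lies above the counts of such weakly called pairs at long spans, so a comparison with them is fixed by the rule there. At 6 kb it is not. After scaling by 0.858, 0 of the 478 IAA-only interactions exceeded the highest count of the weakly called untreated pairs of their peak class. The median count of those untreated pairs was 13 with peaks at both ends and 22.5 with a peak at 1 end. The unscaled medians of the IAA-only interactions at 6 kb were 18 and 22. These are descriptions on the counts the rule used.

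**Figure D2:**
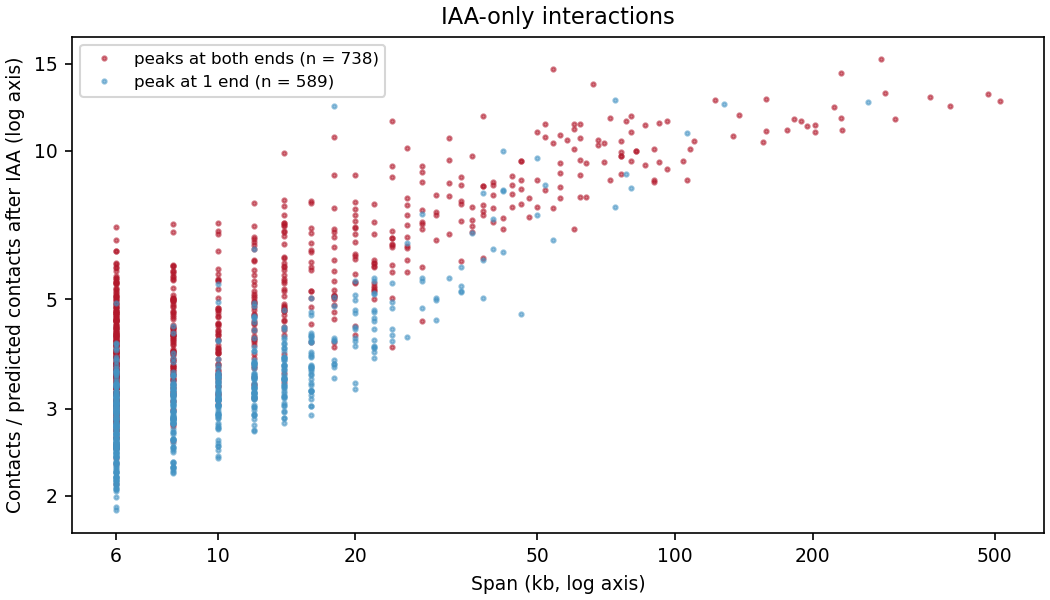
Observed over predicted contacts after IAA against span for each of the 1327 IAA-only interactions, both on log axes. Each point is 1 interaction, in red with peaks at both ends (n = 738) and in blue with a peak at 1 end (n = 589). The ratio is higher at longer spans, up to 15.3 at the Rraga to Rps6 interaction. At 70 kb or more at most 2.01 contacts were predicted, so the rule's minimum of 15 contacts fixes a high ratio there. Blue points lie mostly at short spans.

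Against CTCF, the IAA-only interactions were compared with the other IAA interactions weighted to the same span and contact classes. Of the 1327, 506 crossed a CTCF interaction, meaning that exactly 1 end lay inside it; among all 5534 well-counted IAA interactions that did so, 9.14% were IAA-only. The share was 38.1% against 35.2% in the weighted comparison set, a difference of 2.98 percentage points (95% interval 0.16 to 5.80), higher on 13 of 20 chromosomes. The interval took in 0 with a tolerance of 2 bins (2.96, -0.18 to 6.09), with 20 or more contacts (0.80, -3.83 to 5.43) and with spans from 8 kb (2.82, -0.75 to 6.39). A CTCF-list anchor lay between the ends in 434 (32.7%, 30.2 to 35.3) against 28.9%, a difference of 3.80 points (1.10 to 6.50). Without the weighting both differences changed sign, to -2.50 and -2.18 points. The median span of the other interactions was 12 kb.

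The subsets by peak flag and by span, and the comparison with untreated-only interactions, were chosen after the data were seen. Among pairs with peaks at both ends, 365 of 738 crossed a CTCF interaction (49.5%) against 37.9%, a difference of 11.5 points (7.71 to 15.3), higher on 16 of the 19 chromosomes with enough pairs. A CTCF-list anchor lay between the ends in 41.6% against 31.7%. At spans of 24 kb or more, 159 of 199 crossed a CTCF interaction (79.9%) against 67.5%, and 78.9% against 66.3% held a CTCF-list anchor between their ends. Both shares were higher on 6 of the 9 chromosomes with enough pairs. Of the 467 pairs at 10 to 22 kb, 39.8% crossed against 38.6% (1.18 points, -3.62 to 5.98). An anchor lay between the ends of 33.6% of them against 32.3% (1.29 points, -3.34 to 5.92). At 6 to 8 kb the crossing shares were 24.4% and 22.9%, a difference of 1.41 points (-2.23 to 5.05). Pairs with a peak at 1 end crossed in 23.9% against 19.2%. IAA-only interactions that crossed more than 5 CTCF interactions numbered 236 (17.8%), against 13.2% of the others without weighting. From 1 to 5 were crossed by 20.3% against 27.4%, and none by 61.9% against 59.4%. The highest number crossed was 92. Each bin pair of the CTCF and RAD21 lists was counted here and below. Neighbouring bin pairs of those lists were not joined, so these are not numbers of separate loops.

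Fewer IAA-only interactions lay inside a CTCF interaction, 83.3% against 89.9% (-6.61 points, -8.74 to -4.49), lower on 17 of 20 chromosomes. At 24 kb or more the shares were 68.8% and 80.3%. A CTCF-list anchor lay at an end of 39.0% against 40.6% (-1.56 points, -4.44 to 1.32). Among pairs with peaks at both ends the shares were 50.4% and 42.3%. Only 32 IAA-only interactions (2.41%) were themselves CTCF interactions, against 3.50% (-1.09 points, -2.03 to -0.16). With peaks at both ends, the same bin pair was a CTCF interaction in 3.25% against 3.64% (-0.39 points, -1.77 to 0.99).

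RAD21-list anchors lay at both ends of 69 IAA-only interactions (5.20%) against 8.31% (-3.11 points, -4.44 to -1.77), and at 24 kb or more of 7.54% against 15.4%. Peaks lay at both ends of 55.6% of IAA-only interactions and 91.4% of the weighted set, and among such pairs the shares were 8.67% and 8.74% (-0.07 points, -2.22 to 2.08). Where such pairs spanned 24 kb or more, they were 8.92% and 16.04% (-7.12 points, -11.9 to -2.32). A RAD21-list anchor at 1 or both ends was found in 34.3% of all IAA-only interactions against 38.9% (-4.63 points, -7.42 to -1.83), lower on 14 of 20 chromosomes, and with peaks at both ends in 43.2% against 39.5% (3.71 points, -0.10 to 7.52). The same bin pair was a RAD21 interaction in 9 (0.678%) against 2.71%. At 24 kb or more it was so in 0 of 199, which allows a share of up to 1.89% (Wilson), against 4.81%. The CTCF and RAD21 lists, like the list that the rule excluded, come from untreated cells, and the part this plays in the shared bin pairs was not tested. A RAD21 interaction was crossed by 32.0% against 31.3% (0.67 points, -2.03 to 3.37), and with peaks at both ends by 42.1% against 33.4%.

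**Figure D3:**
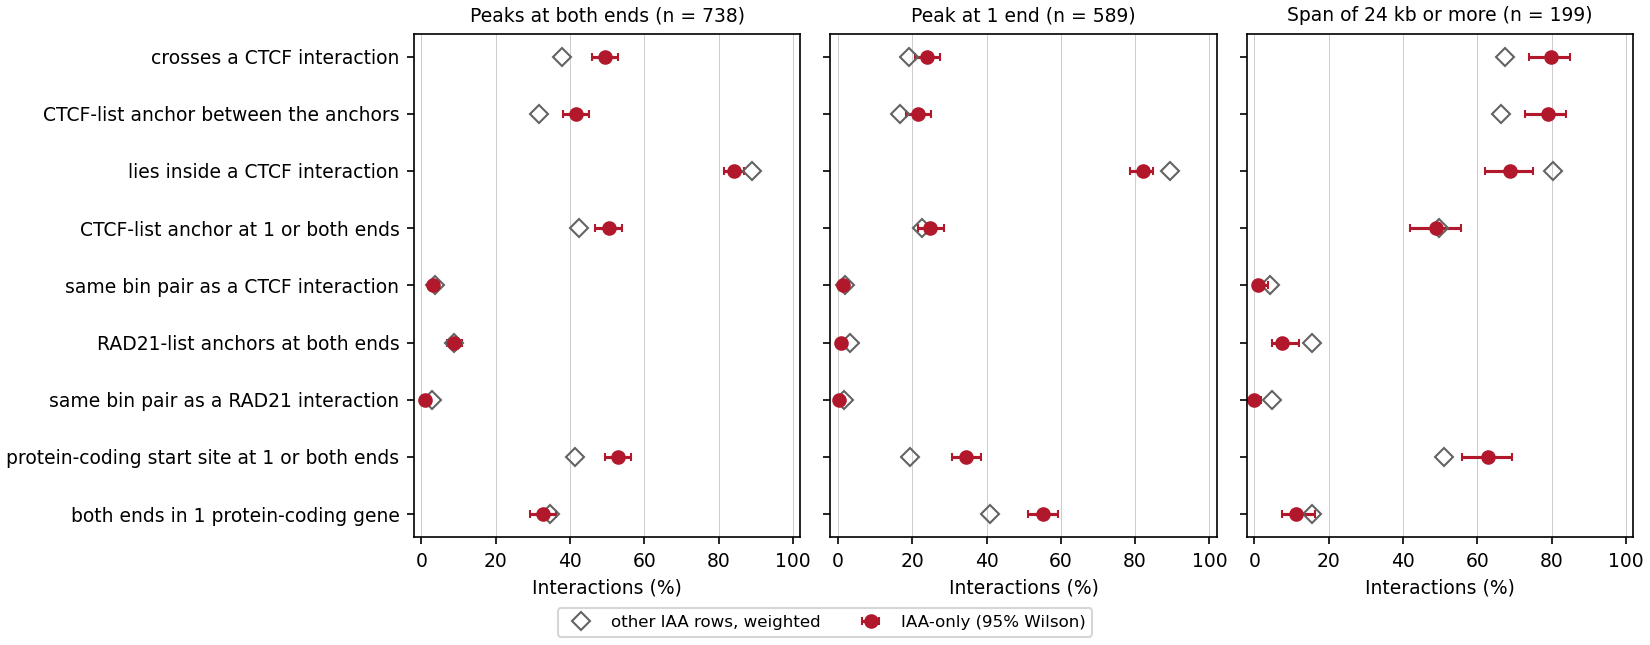
Percent of IAA-only interactions with each CTCF, RAD21 and gene feature (red points with 95% Wilson intervals) and of the other IAA interactions weighted to the same span and contact classes (open diamonds), for pairs with peaks at both ends, with a peak at 1 end, and with spans of 24 kb or more. Crossing of CTCF interactions is 49.5% against 37.9% in the first panel and 79.9% against 67.5% in the last.

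The untreated-only interactions offer the reverse comparison. Weighted to the span and contacts of the IAA-only ones, 36.9% crossed a CTCF interaction, 1.18 points below the IAA-only share (-2.02 to 4.38 for IAA-only minus untreated-only). A CTCF-list anchor lay between the ends of 32.7% of IAA-only and 28.7% of untreated-only interactions (3.99 points, 0.97 to 7.004). With peaks at both ends, crossing differed by 3.76 points (-0.65 to 8.18), with a peak at 1 end by 0.14 (-4.10 to 4.38), at 6 to 8 kb by 0.08 (-4.13 to 4.29), at 10 to 22 kb by 1.34 (-4.20 to 6.88) and at 24 kb or more by 4.44 (-2.27 to 11.2). Of the 7 sets compared in this way, only pairs of 24 kb or more with peaks at both ends had an interval that left out 0 (7.79, 0.40 to 15.2). Peaks lay at both ends of 59.2% of untreated-only and 55.6% of IAA-only interactions (-3.58 points, -6.88 to -0.28 for IAA-only minus untreated-only). Before weighting, untreated-only interactions had a median of 18 contacts and a median span of 10 kb. CTCF-list anchors lay at an end of 47.3% of untreated-only and 39.0% of IAA-only interactions, and at both ends of 13.7% and 7.76%. At 24 kb or more, the same bin pair was a CTCF interaction in 20.73% of untreated-only and 1.01% of IAA-only interactions, and a RAD21 interaction in 20.95% and 0. The CTCF and RAD21 lists share their untreated state with the untreated-only list, and the part this plays was not tested.

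A protein-coding start site lay in an anchor bin of 594 IAA-only interactions (44.8%); among all 5600 well-counted IAA interactions with one, 10.6% were IAA-only. The weighted comparison set had 39.1%, a difference of 5.65 points (2.73 to 8.57), higher on 17 of 20 chromosomes. The direction depended on how neighbouring pairs were counted. With 1 pair per locus the difference was -4.79 points, and with untreated calls matched at the same bin pair alone it was -4.42. The difference was 11.7 points with peaks at both ends and 11.7 at 24 kb or more, and the shares were 34.5% and 19.5% with a peak at 1 end. At 6 to 8 kb, which holds 661 of the 1327, the shares were 35.4% and 34.99% (0.41 points, -3.66 to 4.48). The interval also took in 0 with 20 or more contacts (0.88, -4.06 to 5.82) and with start sites counted within 1 further bin (1.21, -1.70 to 4.11). Against untreated-only interactions it was 1.31 points (-2.05 to 4.67). Start sites lay at both ends of 108 (8.14%) against 9.28% (-1.14 points, -2.75 to 0.48), and with peaks at both ends of 13.55% against 10.9% (2.65 points, 0.05 to 5.25). Both ends lay within 1 gene in 566 (42.7%) against 35.9% (6.75 points, 3.85 to 9.66). That difference was -4.54 points at 24 kb or more (11.1% against 15.6%, interval -9.16 to 0.08), and 2.77 points against untreated-only interactions (-0.56 to 6.09). Pairs within 1 gene made up 55.2% against 40.8% where 1 end was a peak, and 32.7% against 34.6% (-1.98 points, -5.61 to 1.66) where both were.

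IAA-only interactions held the start sites of 693 protein-coding genes, of the 3540 with a start site in any well-counted IAA interaction (19.6%). Of the 693, 347 were also in another IAA interaction with 15 or more contacts and 386 in an untreated one, while 267 were in neither. Interactions with fewer contacts were left out of this count. It was not made for the genes of other interactions, so it has no comparison. Of 19 pluripotency regulators with a start site in a well-counted IAA interaction, 2 were in an IAA-only one, Klf2 and Dppa3. The counts were 0 of 9 for signalling genes of embryonic stem cells, 1 of 2 for later lineage regulators (Tead4, a regulator of trophectoderm) and 0 of 7 for cohesin and CTCF genes. Ribosomal protein genes had 10 of 52 (19.2%), close to the share of all genes, leaving out the S6 kinase genes Rps6ka1 and Rps6kb2, which the name rule also took in.

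Klf2, a pluripotency transcription factor, interacted over 158 kb with Rab8a, a small GTPase of vesicle transport. The bins chr8:72160001-72162000 and chr8:72318001-72320000, each with the start site of its gene, had 19 contacts after IAA against 1.497 predicted (q 1.94e-11). CTCF-list anchors lay at both ends, 11 more lay between them, and the pair crossed 29 CTCF interactions. Both bins had other untreated interactions, 5 at Rab8a and 12 at Klf2, and the nearest untreated pair was 8 bins away. Coverage, the reads per bin, was 4757 in untreated cells and 5278 after IAA at Rab8a, and 8919 and 9162 at Klf2. These counts are not scaled for depth; relative to the median bin the log2 changes were -0.05 and -0.16.

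Dppa3, a maternal factor and marker of the naive state, interacted over 76 kb with a bin 4.49 kb from the start of Nanog, a core pluripotency factor. The bins chr6:122626001-122628000 and chr6:122702001-122704000 had 18 contacts against 1.72 predicted. The pair had 5 CTCF-list anchors between its ends and crossed 26 CTCF interactions, with a RAD21-list anchor at the end near Nanog. Coverage at the Dppa3 bin was 958 without and 1579 with IAA, and at the other bin 12882 and 14687, log2 changes of 0.52 and -0.01 relative to the median bin. The bin near Nanog took part in 36 untreated interactions and the Dppa3 bin in 2.

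The largest ratio to prediction among all IAA-only interactions, 15.3, joined Rraga, a Rag GTPase of the amino acid response, to Rps6, a protein of the small ribosomal subunit. That pair spanned 282 kb and had 19 contacts against 1.24, with 7 CTCF-list anchors between its ends and 2 CTCF interactions crossed. Its bins took part in 1 and 2 untreated interactions. Prr12 interacted with Rpl13a, of the large ribosomal subunit, over 76 kb with 19 contacts against 1.95. Rpl19 and Rps21 each joined a bin 38 kb away, with 20 contacts against 2.36 and 18 against 2.32. Not all were long or far above prediction. The 12 named interactions of this gene list, S6 kinase genes included, spanned 6 to 282 kb. Their ratios to prediction ran from 1.98 to 15.3, and 3 had a peak at only 1 end.

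Esrrb, a nuclear receptor of the pluripotency network, had the pair that crossed the most CTCF interactions. An intronic bin (chr12:86498001-86500000) and a bin outside annotated genes (chr12:86800001-86802000) had 15 contacts against 1.30 over 302 kb. The pair had 13 CTCF-list anchors between its ends, crossed 92 CTCF interactions and 36 RAD21 interactions, and had a CTCF-list and a RAD21-list anchor at its Esrrb end. Both of its bins were busy without IAA, with 20 and 32 untreated interactions. A second pair from the same distal bin, 6 kb long, crossed 42 CTCF interactions with 30 contacts against 11.5.

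The longest IAA-only interactions had 15 contacts each and 1.15 to 1.30 predicted. An intron of Schip1 met the shared start region of Smc4, a condensin subunit, and Ift80, of intraflagellar transport, over 512 kb. Uqcrh, of respiratory complex III, with its neighbour Lrrc41 met Gpbp1l1 over 482 kb. Pabpc1, the cytoplasmic poly(A)-binding protein, met Zfp706 over 398 kb. The purine synthesis genes Paics and Ppat met Polr2b, a core subunit of RNA polymerase II, and Noa1 over 360 kb. Among those 4, CTCF-list anchors between the ends numbered 8, 6, 8 and 6, and the CTCF interactions crossed 3, 1, 15 and 1. In the same order, the nearest untreated pair was over 50, over 50, 2 and 23 bins away. The Pabpc1 to Zfp706 pair is therefore not IAA-only with a tolerance of 2 bins.

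Others crossed many CTCF interactions at shorter spans. AI467606 and an intron of Sept1 (134 kb, 16 contacts against 1.49) crossed 45. Bins near the desaturase genes Scd2 and Scd1 (78 kb, 19 against 1.66) crossed 39. A bin near Smtnl2 and the start of Mybbp1a (20 kb, 15 against 2.76) crossed 39. Hsp90ab1, a cytosolic chaperone, and Mymx, a factor of muscle cell fusion (28 kb, 15 against 3.33), crossed 38.

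**Figure D4:**
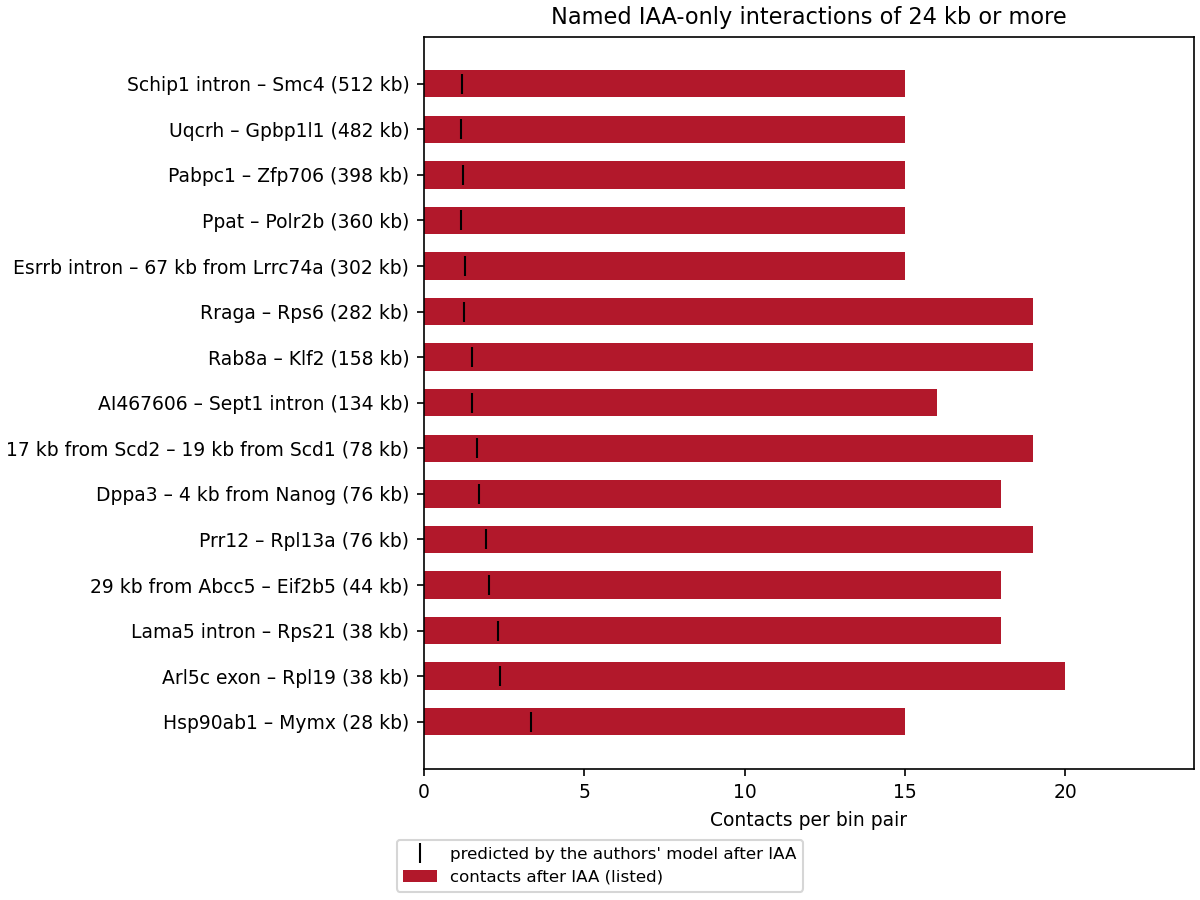
Contacts after IAA (bars) and contacts predicted by the authors' model (black ticks) for the named IAA-only interactions of 24 kb or more, 1 for each left anchor bin. Bars reach 15 to 20 contacts, where the rule sets a minimum of 15, and the predicted counts lie between 1.15 and 3.33.

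The most counted IAA-only interactions were all at 6 kb. The 12 loci of largest count had 38 to 60 contacts against 8.75 to 26.3 predicted, ratios of 1.87 to 4.34, and 10 of them had a peak at only 1 end. The highest, 60 contacts against 25.6, joined exons of Sh3tc1 and crossed 8 CTCF interactions. The next, 58 against 22.4, lay 17.97 kb from the start of Klf2 and reached an intron of Eps15l1. Several ran from a start site into the same gene, as at Rif1, a regulator of replication timing (51 against 23.0), Eef1g, a translation elongation factor (39 against 18.5), and Hnrnpa3, an RNA-binding protein (38 against 16.6).

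Rif1 had 4 IAA-only interactions, all from its start bin into its own exons, with 51 contacts at 6 kb, 16 at 22 kb, 17 at 24 kb and 22 at 38 kb. The start bin was the peak and the far end was not in each of them. Srsf3, a splicing factor, also had 4, with 15 to 17 contacts at 12 to 24 kb, on both sides of its start. One of these reached a bin of the non-coding gene Trp53cor1. Fignl1 had 3, all into introns of its neighbour Ddc, the longest with 18 contacts against 1.63 at 60 kb. Adamtsl4, Fnbp1, G430095P16Rik, Shld1 and Slc38a10 had 3 each. Pairs from 1 start bin share that bin's reads and are not replicates.

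Start sites at both ends of short pairs included Dmtn with Fgf17, a fibroblast growth factor (31 contacts against 13.9), 1600002K03Rik with Efna2, an ephrin ligand (29 against 6.12), and Dhx37, an RNA helicase, with Bri3bp (28 against 5.77). Ppp1r3e with the survival gene Bcl2l2 had 27 against 6.44, Syne4 with E130208F15Rik 24 against 9.54, and Tmem50a with Rsrp1 23 against 6.97. The first 5 of these spanned 6 kb and the last 8 kb.

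The Coverage change at the anchors was close to that of all bins. Coverage in untreated cells was listed for 1367 of the 2452 anchor bins of IAA-only interactions (55.8%). Their median log2 ratio of IAA to untreated Coverage was 0.21 (95% interval of the median 0.19 to 0.22), against 0.20 over all 16828 bins listed in both, a difference of 0.0062 (-0.0045 to 0.016). Relative to the median bin, 9 (0.658%) were higher by 1.5-fold or more, where 0.333% of all bins were, and 1 was lower by as much, where 0.172% of all bins were. Bins that were not peaks had a median of 0.30 (60 bins), against 0.28 for all such bins. A bin without an untreated interaction has no untreated Coverage in these lists, so this comparison leaves out the remaining anchors. Both ends were anchors of some untreated interaction in 420 IAA-only interactions (31.7%), 1 end in 680 (51.2%) and neither in 227 (17.1%); both were in 93.8% of the others, which the rule makes likely.

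The anchors with the largest rise in Coverage among loci with untreated values at both ends lay in introns of Dars, an aminoacyl-tRNA synthetase (762 to 1108 and 1257 to 2242), near Nufip2 (1711 to 3559 and 664 to 805), at Guca2a (2438 to 3169 and 891 to 1664) and at Eif2b5, a translation initiation factor subunit, with its partner 28.6 kb from Abcc5 (6288 to 9858 and 1188 to 1805). The largest falls were smaller, such as 2058 to 1702 at the Pik3r2 end of a pair with Mpv17l2, 2465 to 2192 near Itpk1, 1925 to 1708 near Ren1 and 1878 to 1757 in Ctif. These counts are not scaled for depth; relative to the median bin, the log2 changes over both ends were 0.08 to 0.86 in the first 4 pairs and -0.47 to -0.13 in the others.

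**Figure D5:**
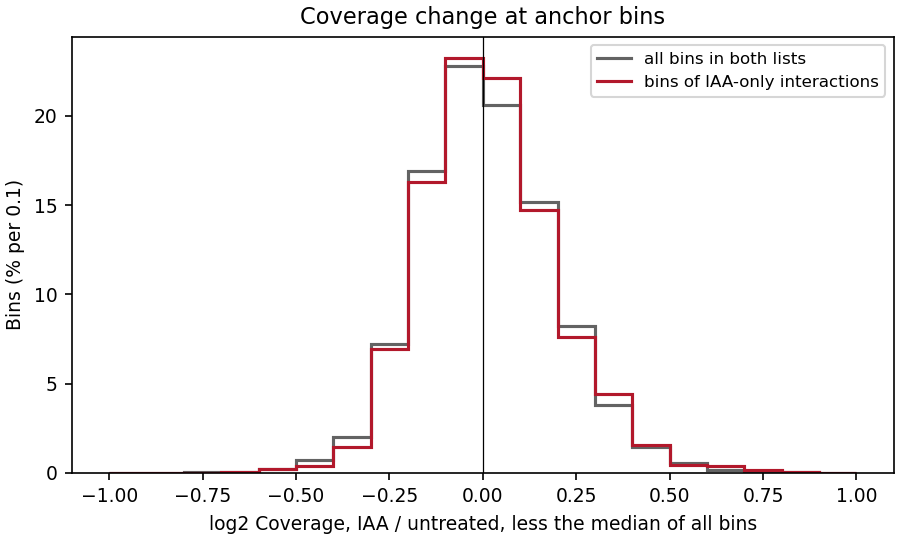
Distribution of the log2 ratio of IAA to untreated Coverage, less the median of all bins, in percent of bins per 0.1, for all 16828 bins listed in both H3K27ac lists (grey) and for the 1367 anchor bins of IAA-only interactions (red). Values beyond the range are in the outermost bins; the distributions nearly coincide, with medians of 0.20 and 0.21 before centring.

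Mean GC content of the anchor bins was 49.3% against 49.2%, a difference of 0.07 points (-0.19 to 0.32). Repeats, counted as soft-masked bases, made up 23.2% against 24.8% (-1.54 points, -2.23 to -0.85), while against untreated-only interactions, with 21.7%, the difference was 1.52 points (0.75 to 2.28). Untreated-only interactions had more GC, 50.5%, than the IAA-only ones, a difference of -1.21 points for IAA-only minus untreated-only.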

How the data were processed

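The interaction lists are the authors' deposited calls, 1 list per group, pooled over libraries per the labels. Deposited contact counts and Coverage counts were whole numbers and not normalised. Each deposited row also held peak flags, the span, a coverage bias as a ratio, a predicted contact signal, its probability as a fraction, and a p-value and q-value. All listed q-values were under 0.05. Build mm10, Trim Galore, BWA, MACS2 and deepTools are named in the submitters' processing notes, with no role given.

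The members, gene lists and comparisons were chosen with earlier results of these data known. Python 3.11.15, pandas 2.3.3, numpy 2.4.6, scipy 1.17.1 and pysam 0.24.0 were used. Start sites came from GENCODE on GRCm38, and CTCF-core matches from the GRCm38 genome. Promoters of 21 of 35 genes looked up were found in RefSeq. Comparison shares were weighted over span classes (breaks at 10, 16, 24, 40, 70, 150 and 300 kb) and contact classes (15, 16, 18, 21, 26 and 36). Intervals are 95% and treat interactions as independent, which neighbouring pairs are not. Calls lacked replicates, so no test over libraries was possible. The computations were tested on simulated data.

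Named loci were the 12 of largest contact count, the 5 of longest span, the 6 with start sites at both ends and most contacts, the 6 crossing the most CTCF interactions, the 4 with the largest rise and 4 with the largest fall of Coverage, and those with a start site of a listed gene. 1 of the named interactions is not reported here. The genes with start sites in 3 or more members were chosen after their values were seen. There were 56 alternatives listed at the start and 6 added after the data were seen (peaks at both ends or at 1, spans from 8 or 24 kb, weighting on exact span and contacts, and untreated-only interactions as the comparison), and the closing section gives their effect.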

Additional observations from a re-analysis of the deposited data

How the results depend on the processing

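No paired analysis was possible because each group is 1 list pooled over its libraries, and leaving out a library was likewise not possible; the 2 alternatives that need this were not run. Values below are the IAA-only share minus the comparison share in percentage points, or counts of interactions.

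The number of IAA-only interactions was 3484 with untreated calls matched at the same bin pair only, 419 with 20 or more contacts, 2805 with 12 or more, 738 with peaks at both ends, 589 with a peak at 1 end, 849 from 8 kb and 199 from 24 kb; with a tolerance of 2 bins it was 1042, with q of 0.01 or less 895. For the CTCF-list anchor between the ends, the reported 3.80 became 6.95 with the same bin pair only, 6.50 with 12 or more contacts, 6.77 with 1 pair per locus, 9.89 with peaks at both ends, 12.62 with spans from 24 kb, -2.18 with no weighting and 6.82 with weighting on Coverage as well. For crossing a CTCF interaction, the reported 2.98 became 7.21 with 12 or more contacts, 6.65 with q of 0.01 or less, 11.51 with peaks at both ends, 12.4 with spans from 24 kb, -2.50 with no weighting and 6.29 with weighting on Coverage as well. For a CTCF-list anchor at an end, the reported -1.56 became -5.66 with the same bin pair only, -5.51 with 20 or more contacts, -7.70 with 1 pair per locus, 8.11 with peaks at both ends, 2.10 with a peak at 1 end and -8.19 with untreated-only interactions as the comparison. For a start site at an end, the reported 5.65 became -4.42 with the same bin pair only, 0.88 with 20 or more contacts, -4.79 with 1 pair per locus, 11.71 with peaks at both ends, 15 with a peak at 1 end, 10.09 with spans from 8 kb, 11.67 with spans from 24 kb, 1.31 with untreated-only interactions as the comparison and 1.21 with 1 further bin. For the median log2 Coverage change relative to all bins, the reported 0.00617 became 0.0231 with 20 or more contacts and -0.0159 with scaling by the model totals. The other 49 values stayed within the interval of the reported one or, for the counts, within 1.5 times it. The cause of each change was not tested, other than that filters on contacts, peaks, spans and loci change which pairs are compared. Staying within that interval does not mean that a value's own interval leaves out 0: for the CTCF-list anchor between the ends it took in 0 with 20 or more contacts (2.64, -1.67 to 6.96) and with spans from 8 kb (2.89, -0.61 to 6.40), and for crossing also with RAD21 in place of CTCF interactions (0.67, -2.03 to 3.37) and against untreated-only interactions (1.18, -2.02 to 4.38). A pair not called in untreated cells was not called at that depth, and the part depth plays was not tested.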
